A study of Oryza sativa with 7 samples.

Results

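A group of 54 rice genes stood high in a single wild-type library of the young caryopsis. They were chosen by their values: each had at least 5 RPKM (reads per kilobase of gene model, scaled to the depth of the library) in WT replicate 2, and at least 2 times the highest value of the other 5 libraries. Only the 35484 rows of the table that carry a RAP identifier, the locus number of the Rice Annotation Project, were considered. The 54 are 0.152% of these rows, and 0.384% of the 14069 that reached 5 RPKM in WT replicate 2. Since the level in WT replicate 2 chose the genes, that level is described here and not tested.

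The libraries hold poly(A) RNA from caryopses of field-grown rice, taken 2 days after fertilization. Values were analysed for 2 libraries of the mutant allele osbzip76-1, 1 library of the independent mutant allele osbzip76-2 and 3 libraries of WT, which the sample titles name Kitaake. OsbZIP76 is a basic leucine zipper factor, and the series description ties its loss to early cellularization of the endosperm and says that summer heat advanced that step in WT and mutants alike. The labels name whole caryopsis as the tissue, while the extraction protocol speaks of endosperm. Transcripts of OsbZIP76 were not analysed here, so the genotypes have no check from the mutated gene.

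The caryopsis joins tissues of different origin. The pericarp, the seed coat and the nucellus come from the mother plant, and the endosperm and the embryo come from fertilization. The early endosperm is a syncytium whose nuclei divide without walls, and cellularization then encloses them. Starch synthesis follows, with ADP-glucose pyrophosphorylase making the sugar donor. In a bulk library more cells of one tissue and more RNA per cell cannot be told apart.

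WT replicate 2 differed from the other libraries in more than these genes. On the first principal component, with 45.3% of the variance, it scored 61.3, while the others lay between -30.5 and 2.97. Its value was above all 5 other libraries in 25.7% of the 21521 rows with a mean of at least 1 RPKM in those 5, and below all of them in 34.2%. The table gave it 22504199 reads in all, against 19900850 to 24887952 for the others. Reads assigned to rows were 82.8% of its total, against 84.6% to 85.7%, and 26910 rows held a read in it, against 27560 to 29012. The part of these differences in the levels below was not tested. The same cut found 239 genes low only in WT replicate 2, and 178 genes high only in the osbzip76-2 library. For each of the remaining libraries it found between 1 and 12 genes.

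The 54 genes were mostly of moderate level. In WT replicate 2 they ranged from 5.07 to 324 RPKM with a median of 11.2 RPKM; 33 reached 10 RPKM, 15 reached 20 RPKM and 2 exceeded 100 RPKM. Their ratio to the highest other library had a median of 2.31, 9 genes reached 3 and 3 genes reached 5. Together they took 0.231% of the reads assigned to rows in WT replicate 2. That share was 0.0621% and 0.0579% in the osbzip76-1 libraries, 0.0847% in the osbzip76-2 library, and 0.0867% and 0.0735% in WT replicates 1 and 3. The median member stood at 11.2 RPKM in WT replicate 2, at 2.98 and 3.44 RPKM in osbzip76-1, at 3.93 RPKM in osbzip76-2, and at 4.39 and 3.35 RPKM in WT replicates 1 and 3. The exact 95% interval of the ratio of reads, corrected for depth, had its lower limit above 2 in 19 of the 54 genes. In the others counting error alone reaches below the ratio that chose them. Such intervals cover counting error only. They take no account of the choice of the genes by this same ratio, so here and below they are a description and no test.

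**Figure D1:**
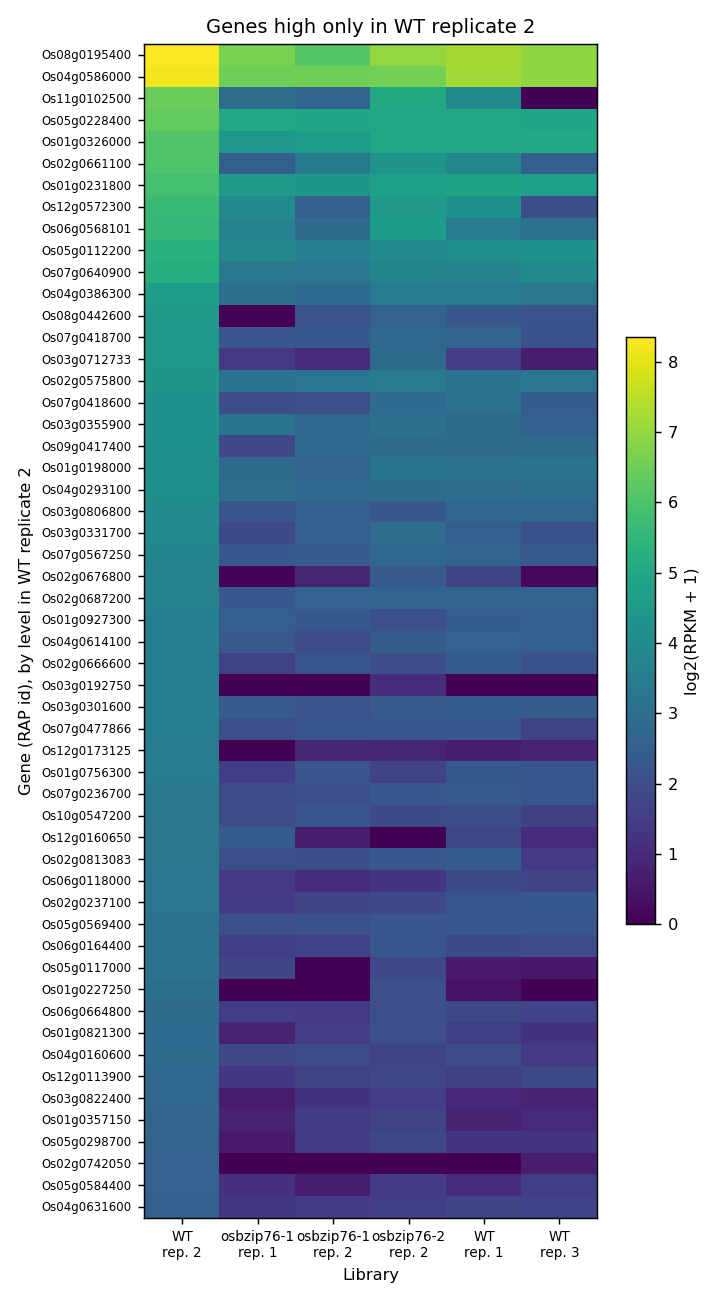
Each row is 1 of the 54 genes, ordered by level in WT replicate 2, and each column a library; colour gives log2(RPKM + 1). The first column is the brightest in every row because the genes were chosen that way, and dark cells mark the genes at or near 0 in single other libraries.

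The table gives no name for any of the 54 genes, and the gene table used here matched 0 of them, so they are given by identifier with no role. The most abundant was Os08g0195400, with 324 RPKM in WT replicate 2, 101 and 69.1 RPKM in osbzip76-1, 127 RPKM in osbzip76-2, and 148 and 123 RPKM in WT replicates 1 and 3. Os04g0586000 had 292 RPKM in WT replicate 2, against 89.7, 93.6 and 96.8 RPKM in the mutants and 143 and 123 RPKM in WT replicates 1 and 3. Both were well expressed in every library, and another WT library came next after WT replicate 2. Os05g0228400 was the steadiest of the abundant genes elsewhere, with 80.2 RPKM in WT replicate 2, against 29.8 to 31.5 RPKM in the mutants and 31.8 and 28.6 RPKM in WT replicates 1 and 3. Os01g0326000, Os01g0231800 and Os05g0112200 had 65.8, 57.4 and 38.4 RPKM in WT replicate 2. Their highest other values were 32.1, 27.9 and 18.2 RPKM, each in another WT library.

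Other abundant members varied widely among the remaining libraries. Os11g0102500 had 86.1 RPKM in WT replicate 2, 6.97 and 5.55 RPKM in osbzip76-1, 32.6 RPKM in osbzip76-2, and 14.7 and 0 RPKM in WT replicates 1 and 3. It thus had 148 reads in one WT library and none in another, where 0 reads allow up to 0.288 RPKM (3 reads). Os02g0661100 had 65.2 RPKM in WT replicate 2, against 4.75, 9.33 and 19.1 RPKM in the mutants and 12.8 and 5.02 RPKM in WT replicates 1 and 3. Os12g0572300 had 49.8 RPKM in WT replicate 2, against 15.4, 4.79 and 21.8 RPKM in the mutants and 17.1 and 3.04 RPKM in WT replicates 1 and 3. Os06g0568101 had 46.4 RPKM in WT replicate 2, against 12.1, 6.72 and 22.4 RPKM in the mutants and 9.90 and 7.70 RPKM in WT replicates 1 and 3. In these 4 genes the osbzip76-2 library was next after WT replicate 2.

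The genes with the largest ratios were low elsewhere or at 0. Os12g0173125 had 10.1 RPKM in WT replicate 2 and at most 0.858 RPKM in any other library, a ratio of 11.8 (exact 95% interval 7.73 to 18.96). Os03g0192750 had 226 reads in WT replicate 2, 23 in the osbzip76-2 library and 0 in each of the others, a ratio of 10.3 (exact 95% interval 6.71 to 16.6). Os02g0742050 had 126 reads in WT replicate 2, 17 in WT replicate 3 and 0 in all mutants and WT replicate 1, a ratio of 8.20 (exact 95% interval 4.92 to 14.5). In these 3 genes the next highest library had between 17 and 23 reads. Os08g0442600 had 21.6 RPKM in WT replicate 2, against 0.0351, 3.41 and 5.11 RPKM in the mutants and 3.80 and 3.37 RPKM in WT replicates 1 and 3. Its osbzip76-1 libraries differed from each other by 1 read against 103. Os06g0118000 and Os03g0822400, with ratios of 3.26 and 3.11, were low throughout the other libraries, at 2.68 RPKM or less. No member was at 0 in all 5 other libraries, and 7 were at 0 in at least 1.

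**Figure D2:**
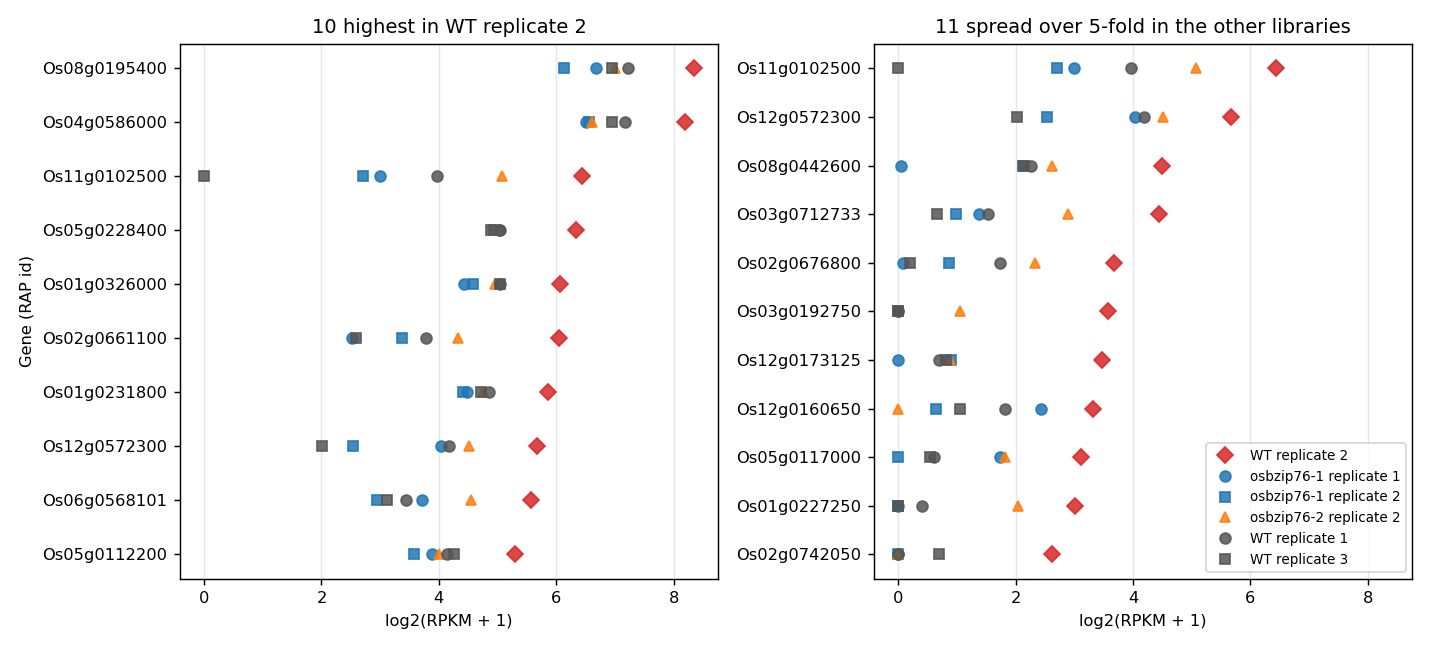
Points give log2(RPKM + 1) in each of the 6 libraries for the 10 members highest in WT replicate 2 (left) and the 11 members whose other 5 libraries spread over 5-fold (right). Os05g0228400 has its other libraries close together, while Os11g0102500 ranges from 0 to 32.6 RPKM outside WT replicate 2.

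The cut fell within a continuous run of values. Os02g0575800 and Os01g0198000 entered at ratios just over 2, with 19.4 and 16.9 RPKM in WT replicate 2. Os03g0206100 stayed out with 19.1 RPKM against a highest other value of 9.56 RPKM, and Os01g0354175 with 5.81 against 2.90 RPKM. Os04g0631600 and Os05g0584400 entered at 5.07 and 5.11 RPKM, and Os05g0208550 and Os02g0601000 stayed out at 4.95 RPKM each.

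The 54 genes fell into kinds by how they varied outside WT replicate 2. In 27 of them the other 5 libraries lay within 2-fold of each other, in 11 they spread over more than 5-fold or down to 0, and 16 lay between. Of the 50 members with a mean of at least 1 RPKM in those 5 libraries, 27 (54%) were within 2-fold, beside 83.5% of all 21521 rows that passed this filter. A spread over 5-fold or down to 0 was found in 7 of these 50 members, beside 2.58% of the RAP rows that passed it. The members and the rows beside them were not matched for level. A mean of 5 RPKM in those 5 libraries was reached by 18 of the 50 members and by 14771 of the 21521 rows. The next highest library was a WT library in 17 of the 27 steady genes and the osbzip76-2 library in 8. Among the 11 variable genes it was a WT library in 1 and the osbzip76-2 library in 8. Over all 54 genes it was the osbzip76-2 library in 24, WT replicate 1 in 17, WT replicate 3 in 9, and each osbzip76-1 library in 2. How often each library ranks so over all rows was not counted. These counts are therefore not read as a trait of the members, since the osbzip76-2 library had 178 genes high only in it. WT replicate 1 was above WT replicate 3 in 36 of the 50 members (72%), beside 39.5% of all rows.

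Features that the cut did not use also set some members apart, as a description. RAP identifiers were numbered in steps of 100, and loci added later carry numbers in between. Such numbers were found in 11 of the 54 genes (20.4%), beside 4.87% of the rows with at least 5 RPKM in WT replicate 2, and in 6 of the 11 variable genes. Os03g0192750, Os12g0173125 and Os02g0742050, with the largest ratios, are all of this kind. The share of such numbers among all rows that vary as widely was not counted. For numbers and lengths alike, the rows set beside the members were not matched to them for level or spread in the other libraries. The gene models were short, with a median of 1147 bases recovered from the steps of the values, beside 1555 bases for rows of at least 5 RPKM in that library, and 40 members lay below that median. By their identifiers the genes are spread over all 12 chromosomes, from 1 gene on each of 9, 10 and 11 to 8 on 1 and on 2. Among the rows next to a member in identifier order, 16 of 67 measured were above all other libraries in WT replicate 2 (23.9%), close to the 25.7% of all rows.

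Only 2 members lay within 5 rows of each other, the adjacent Os07g0418600 and Os07g0418700, a pair chosen after its values were seen. Os07g0418600 had 18.4 RPKM in WT replicate 2, against 2.90, 3.14 and 6.56 RPKM in the mutants and 7.93 and 4.33 RPKM in WT replicates 1 and 3. Os07g0418700 had 20.95 RPKM in WT replicate 2, against 3.83, 3.92 and 5.91 RPKM in the mutants and 5.30 and 3.32 RPKM in WT replicates 1 and 3. Their profiles were alike, with WT replicate 1 and osbzip76-2 next after WT replicate 2. How reads of similar or overlapping genes were shared out is not given in the sources used here.

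Whether the mutants carried different levels of these genes was tested without WT replicate 2, on log2(RPKM + 1) with limma over all 21521 rows, 3 mutant libraries against WT replicates 1 and 3. In all, 108 rows (0.502%) passed the adjusted p threshold of 0.05. The mutants were higher in 84 of them (0.39%) and lower in 24 (0.112%). None was a member, 0 of the 50 tested; the other 4 members did not pass the filter on low values. At an unadjusted limma p under 0.05 there were 6 members, all lower in the mutants, beside 15.1% of all rows (6.7% higher and 8.43% lower). With voom on the recovered reads 4 members were at that level, beside 3361 of all rows, and 0 members were past the threshold, beside 110 of all rows. The median log2 fold change was -0.16 over the 50 members and -0.04 over all rows. The lowest p belonged to Os04g0586000, with 89.7, 93.6 and 96.8 RPKM in the mutants against 143 and 123 RPKM in WT replicates 1 and 3 (limma log2 fold change -0.50, SE 0.11, adjusted p = 0.119). These groups did not overlap for that gene, but its limma adjusted p ranged from 0.0578 to 0.542 over 12 alternatives. The alternatives include the fits with WT replicate 2, whose values chose the gene. In 11 of the 50 members all mutant libraries lay below both WT libraries (22%), close to the 21.2% of all rows, and in 0 members all lay above both, beside 13.6% of all rows. Without osbzip76-2 replicate 2, 1 of 47 members tested passed, beside 554 of 21367 rows. It was Os01g0326000, lower in osbzip76-1 (limma log2 fold change -0.54, adjusted p = 0.0436).

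Between the alleles, members stood higher in osbzip76-2 than in osbzip76-1 more often than lower. The limma log2 fold change was positive in 43 of the 50 members and negative in 7, with a median of 0.38, beside 52.4% positive and a median of 0.02 over all rows. The osbzip76-2 library was above both osbzip76-1 libraries in 38 members (76%), beside 39.2% of all rows, and below both in 4 (8%), beside 34.9%. In this comparison 264 rows (1.23%) passed the adjusted p threshold, 228 higher (1.06%) and 36 lower (0.167%) in osbzip76-2, and 0 members did. Of the members 14 had an unadjusted limma p under 0.05, all higher, beside 14.5% of all rows (9.15% higher and 5.38% lower), and voom gave 19 members at that level, beside 3304 of all rows, and 1 past the threshold, beside 455 of all rows. With 1 library of osbzip76-2, the allele and the library cannot be told apart, and the test assumes that this library varies like the others.

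The members with the smallest p between the alleles were among the variable ones in part. Os03g0712733 had 6.39 RPKM in osbzip76-2 against 1.59 and 0.981 RPKM in osbzip76-1 (limma log2 fold change 1.71, SE 0.37, adjusted p = 0.102). It stood at 20.8 RPKM in WT replicate 2 and at 1.87 and 0.587 RPKM in WT replicates 1 and 3. Os06g0568101 had 22.4 RPKM in osbzip76-2 against 12.1 and 6.72 RPKM in osbzip76-1 (limma log2 fold change 1.22, SE 0.30, adjusted p = 0.137). Single members passed in other settings. Os06g0568101 passed limma with voom (adjusted p = 0.0385) and without osbzip76-1 replicate 1 (adjusted p = 0.00644), with a highest adjusted p of 0.331 over 9 alternatives. With no further library left out, the limma log2 fold change of Os11g0102500 was 2.22 (SE 1.30), and the gene did not pass. Its fold change stayed so without WT replicate 1 or without WT replicate 3. Those libraries, at 14.7 and 0 RPKM, bear only on its estimate of the spread. Leaving out osbzip76-1 replicate 2 also left 1 library in each allele, so the spread within an allele could not be seen. The limma log2 fold change was then 2.56 for Os08g0442600, 1.145 for Os09g0417400 and -2.44 for Os12g0160650. With that library kept it was 1.52, 0.62 and -1.54, and none of these genes passed. Os09g0417400 and Os12g0160650 are named because their values were seen. Os03g0192750, below the filter, passed with no filter on low values (limma adjusted p = 0.0457), where 101 of 31194 rows passed.

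**Figure D3:**
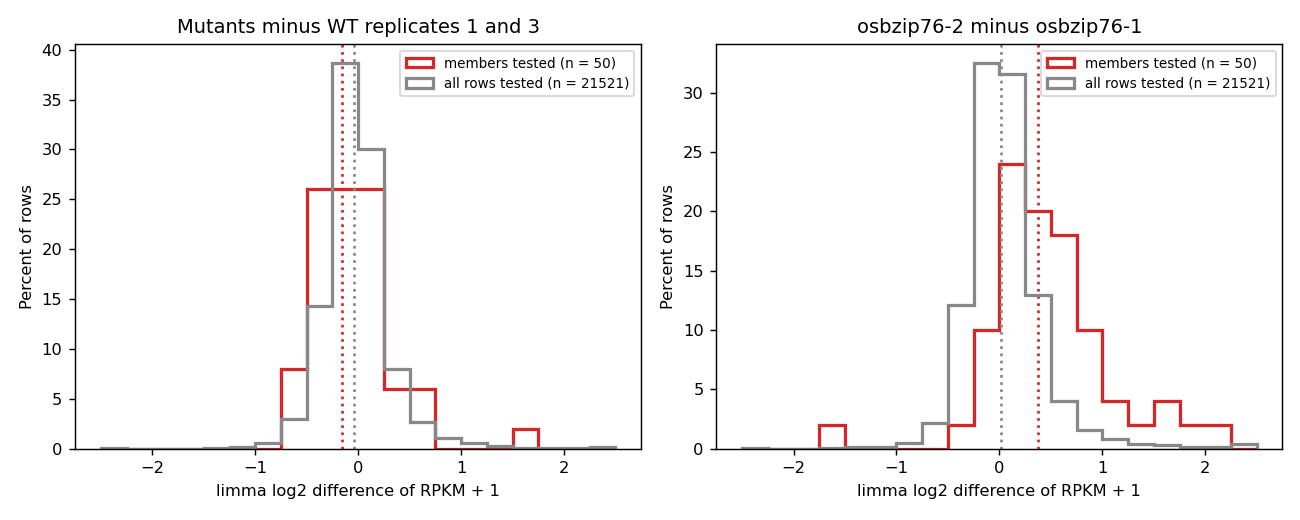
Percent of rows by limma log2 difference of RPKM + 1, for the 50 members tested and for all 21521 rows; dotted lines are the medians, and values beyond the axis are drawn in the outermost bin. The members lie to the right of all rows for osbzip76-2 minus osbzip76-1 (medians 0.38 and 0.02) and slightly to the left for mutants minus WT replicates 1 and 3 (-0.16 and -0.04).

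Whether WT replicate 2 carried more maternal tissue, a stress response or an earlier stage was read from genes that the table names by symbol, none of which is a member. With 1 library there is no test. Of the maternal lists, the ovule and seed coat MADS-box genes had 2 measured rows and the photosynthesis genes of the green pericarp 5. WT replicate 2 was above all other libraries in 1 MADS-box gene and in 2 photosynthesis genes, PORB and rbcL, and below all others in none. Beside these counts, WT replicate 2 was above all others in 25.7% of all rows and below in 34.2%. Lists of 2 and 5 measured rows are too short to be compared with those shares. rbcL was low in every library, with 1.92 RPKM in WT replicate 2 and 0.666 to 1.504 RPKM elsewhere. MADS58, a C-class MADS-box gene of the flower and ovule, had 97.0 RPKM in WT replicate 2, 92.4 to 113 RPKM in the mutants, and 85.7 and 97.4 RPKM in WT replicates 1 and 3. MADS30, a B-sister MADS-box gene, had 5.69 RPKM in WT replicate 2, 3.16 to 4.55 RPKM in the mutants, and 4.62 and 2.97 RPKM in WT replicates 1 and 3. PORB, a protochlorophyllide reductase of chlorophyll synthesis, had 17.4 RPKM in WT replicate 2, 10.7 to 13.7 RPKM in the mutants, and 15.0 and 14.6 RPKM in WT replicates 1 and 3. petC, the Rieske protein of photosynthetic electron transport, had 59.2 RPKM in WT replicate 2 and lay within the range of the others, 45.2 to 81.2 RPKM. The summed level of the photosynthesis list was 103 RPKM in WT replicate 2 and 85.8 to 123 RPKM elsewhere. Its median log2 difference from WT replicates 1 and 3 was 0.22, but -0.04 from the mean of all 5 other libraries. Of the 34 rows of that list only these 5 averaged at least 1 RPKM outside WT replicate 2. The table named no gene of the nucellus list.

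The measured defence and stress genes did not stand high together. Of 11 measured defence genes WT replicate 2 was above all other libraries in 1 (9.09%), beside 25.7% of all rows. It was below all others in 5 (45.5%), beside 34.2% of all rows. The median log2 difference from WT replicates 1 and 3 was -0.43. All 5 below were chitinase genes, enzymes that cut fungal cell walls: Cht1, Cht7, Cht8, Cht9 and Cht12 (Cht7, Cht9 and Cht12 chosen after their values were seen). Chitinase genes made up most of the 11 measured defence genes, so these shares describe mainly that family. Cht7, Cht12, Cht9 and Cht8 were near 0 in WT replicate 2, at 0, 0.383, 0.442 and 0.746 RPKM. Their lowest values elsewhere were 0.339, 0.836, 1.05 and 2.63 RPKM. Cht1 had 11.2 RPKM in WT replicate 2, 13.2 to 41.9 RPKM in the mutants, and 14.1 and 33.9 RPKM in WT replicates 1 and 3. WRKY71, a stress-responsive WRKY factor, had 5.89 RPKM in WT replicate 2, 1.61 to 9.28 RPKM in the mutants, and 2.09 and 1.67 RPKM in WT replicates 1 and 3. Of the abiotic stress list both measured genes, APX8, an ascorbate peroxidase, and MYBS1, a MYB factor, were below all other libraries. The table named no heat shock gene.

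Of the grain filling lists, that of starch synthesis stood low in WT replicate 2. It holds only ADP-glucose pyrophosphorylase subunit genes (AGPL1 to AGPL4, AGPS1 and AGPS2) and FLO6. The measured activators of storage protein genes did not stand low together. WT replicate 2 was below all other libraries in 5 of the 7 genes of the starch list (71.4%), beside 34.2% of all rows. It was above all in 1. The list's median log2 difference from WT replicates 1 and 3 was -0.58, beside -0.08 for all rows. AGPL3, the most abundant of the list, had 333 RPKM in WT replicate 2, within the 322 to 396 RPKM elsewhere. AGPL2 codes for a large subunit of the pyrophosphorylase and had 37.9 RPKM in WT replicate 2, 167 to 193 RPKM in the mutants, and 87.4 and 81.6 RPKM in WT replicates 1 and 3. AGPL1, another large subunit, was the 1 above, with 15.9 RPKM in WT replicate 2 and 9.66 to 12.6 RPKM elsewhere. The 8 measured genes of the storage protein and activator list were all DOF and RISBZ genes. GLUD1, the storage protein gene listed, averaged under 1 RPKM outside WT replicate 2 and was not measured. The 8 had a median log2 difference of 0.18 from WT replicates 1 and 3, and of 0.01 from the mean of all 5 other libraries. Among them DOF2, RISBZ3 and RISBZ2 were above all others and DOF3 and DOF5 below. DOF2, a DOF zinc finger gene, had 43.7 RPKM in WT replicate 2, at most 21.4 RPKM in the mutants, and 27.0 and 25.6 RPKM in WT replicates 1 and 3. DOF3 had 7.57 RPKM in WT replicate 2, 39.7 to 53.9 RPKM in the mutants, and 18.1 and 15.1 RPKM in WT replicates 1 and 3. Both genes thus placed WT replicate 2 at the end opposite the mutants, with the other WT libraries between.

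For a direct mark of an earlier stage the named genes were few. The 2 cyclin genes of the cell cycle list were at 0 RPKM in all 6 libraries. The chromatin list had 4 measured rows, CMT3, DCL1, DCL3B and RDR1, with no Polycomb gene among them. WT replicate 2 was below all others in 1, CMT3, a DNA methyltransferase, with 20.9 RPKM against 24.8 to 25.9 RPKM elsewhere. Embryo genes gave OSH1, a homeobox gene of the shoot meristem, at 6.08 RPKM in WT replicate 2 within a range of 3.00 to 7.56 RPKM elsewhere, and SHL2 at 2.07 RPKM, below all others. Of the pollen and anther list MSP1 was above all others, at 11.3 RPKM against 8.81 to 10.5 RPKM, and PSS1 below. Of the other lists WT replicate 2 was below all other libraries in 2 of 4 sugar transport genes, 2 of 2 cell wall genes, 2 of 3 hormone genes and 3 of 5 mineral transport genes, and above all in none of them. Over all rows the shares were 34.2% below and 25.7% above. These lists hold few rows, were matched by symbol alone, and do not reach the 54 genes themselves.

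**Figure D4:**
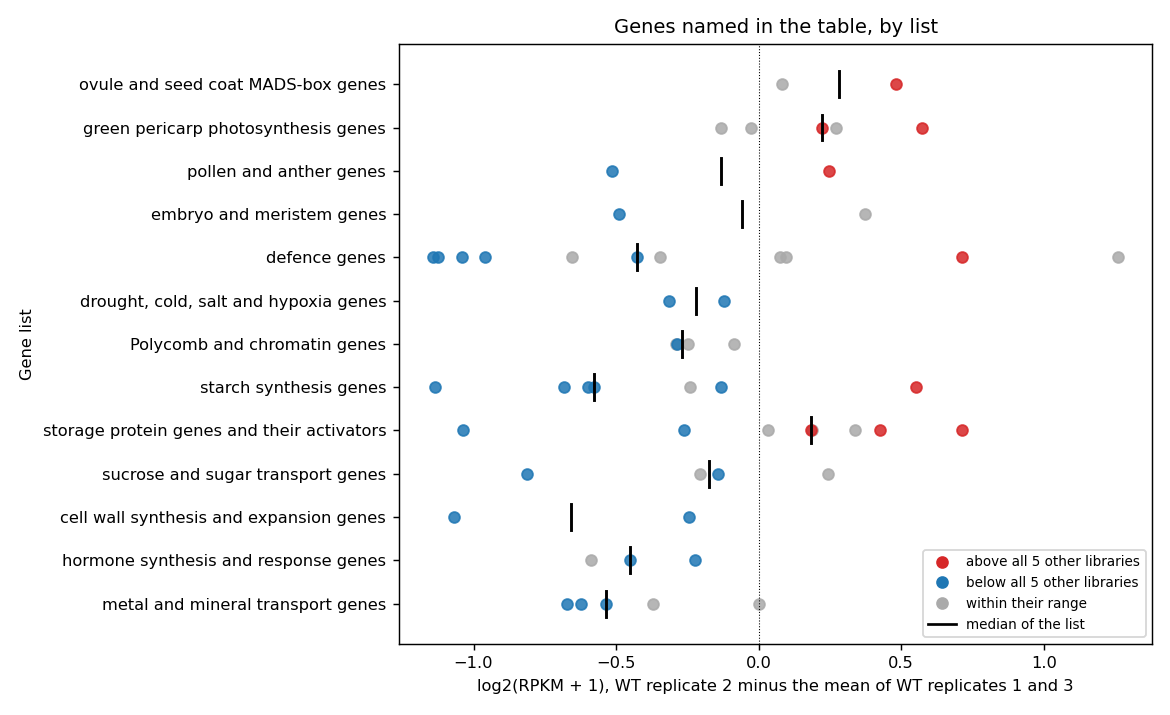
Each point is a gene named in the table with a mean of at least 1 RPKM in the 5 other libraries, placed by its log2(RPKM + 1) in WT replicate 2 minus that of the mean of WT replicates 1 and 3; bars are list medians. The starch synthesis list, of pyrophosphorylase subunit genes and FLO6, lies mostly to the left (median -0.58). The 2 maternal lists lie slightly to the right (medians 0.28 and 0.22, the photosynthesis median turning to -0.04 against all 5 other libraries).

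Of the 341 rows named by a symbol or another name, 1 met the same cut. It was rps19, a ribosomal protein gene that the gene table places in both the plastid and the mitochondrial genome. It had 10.9 RPKM (69 reads) in WT replicate 2, 4.10, 4.70 and 5.40 RPKM in the mutants, and 4.12 and 2.85 RPKM in WT replicates 1 and 3. Its ratio of 2.01 to the highest other library had an exact 95% interval from 1.33 to 3.10.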

How the data were processed

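The authors deposited 1 table of RPKM values, with a column for 6 of the 7 labelled libraries; osbzip76-2 replicate 1 was not analysed here. Libraries were made from poly(A) RNA with a NEBNext Ultra kit, per the labels' protocols. The submitters' processing notes name IRGSP-1.0 as the build. Not given in the sources used here are the aligner, the counter and its use of strand. The series description calls the WT replicates biological and says less of the mutants', so p-values measure the spread between these libraries, part of which may be technical. Reads, library totals and gene model lengths were recovered as the whole numbers that give all values, which held within 0.02 reads for all 168975 values above 0 (100%). Where a row has few reads, the smallest length that does so was taken. Totals per library were 19900850 to 24887952 reads.

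Rows with a mean of at least 1 RPKM over the libraries other than WT replicate 2 were tested with limma 3.58.1 (R 4.3.3; eBayes with trend, two-sided) on log2(RPKM + 1), with Benjamini-Hochberg adjustment over all rows and a threshold of 0.05. This scale understates the change of low genes. Read ratios have exact binomial intervals. Voom used recovered reads with TMM scaling, computed directly. Both steps were tested on simulated data. Named genes were chosen by rule: the 10 highest members, the 10 of largest ratio, those next to each threshold, members in runs of 3 or more consecutive identifiers, members past a test's threshold, and in each list the most abundant and the most deviating genes. Names are those of the table; the gene table (assembly ASM3414082v1) matched 208 rows, 1 of them a RAP identifier. The members, lists and tests were chosen with earlier results of these data known. Alternatives were other pseudocounts, filters and scalings, voom, leaving out libraries, and other cuts. A result for one gene of the defence list is not reported here.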

Additional observations from a re-analysis of the deposited data

How the results depend on the processing

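The number of genes meeting the cut was 54, and became 99 with a minimum of 2 RPKM, 33 with 10 RPKM, 411 with a ratio of 1.5, 9 with a ratio of 3, and 19 when the lower counting limit had to exceed 2. With TMM or median ratio scaling it was 71 or 81, and all 54 were kept. Leaving out 1 other library from the comparison, an alternative chosen after seeing the data, gave 54 to 146 genes, the highest without osbzip76-2 replicate 2. For the mutants against WT replicates 1 and 3 the count of 108 became 57 with no filter on low values, and 14 to 554 with 1 more library left out (554 without osbzip76-2 replicate 2, 60 without osbzip76-1 replicate 1, and 14 or 16 without the first or the third WT library). For osbzip76-2 against osbzip76-1 the count of 264 became 123 with a pseudocount of 0.1 RPKM, 101 with no filter, 83 with a filter of 5 RPKM, 455 with voom, and 122 to 552 with 1 library left out. Where such a fit left an allele or WT with 1 library, that library was assumed to vary like the others. The causes were not tested. With WT replicate 2 in the fit the count was 81, and its values chose the members, so it is no support for them. With WT replicate 2 and the replicate number as a replicate block the count was 31, with 1 member past the threshold. That fit also holds the library that chose the members, so it is no support for them. Same-numbered WT and osbzip76-1 libraries had correlations of -0.01 and -0.10 between their deviations from the group means. With 2 osbzip76-1 libraries these deviations mirror each other, so the correlations cannot decide whether the numbers pair the samples. The numbers were not taken to pair them. The median of all rows, -0.08, was -0.02 with TMM and 0.01 with median ratio scaling, and that of the embryo list, -0.06, was 0.0001 and 0.02. The defence median was -0.86 against the mean of all 5 other libraries. RPKM values of a few reads limit the genes near 0.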
